A study of Bos taurus with 12 samples.

Results

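The enzymes that write and erase methyl marks on histones, together with the protein arginine methyltransferases, were followed in the liver of newborn calves as a group of 45 genes among the 30336 genes counted. The members were listed by symbol and matched to the Entrez gene IDs of the count tables through a bovine RefSeq gene table, and all 45 were matched. Poly(A) RNA was sequenced from liver puncture biopsies of 12 Holstein heifer calves at 4 d of age. The dams of the 6 CON calves ate a close-up diet to which no Met was added. The dams of the 6 MET calves received that diet plus ethyl-cellulose rumen-protected Met (Mepron) during the last 28 d of gestation. Calves of both groups received colostrum of their own dam and then milk replacer, and were managed alike after birth. The diets were thus assigned to the dams, whose colostrum also reached the calf. The comparison asks whether the supply of a methyl donor precursor to the dam was followed by a different abundance of these mRNA in the calf.

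Methylation of histone tails uses S-adenosylmethionine, made from Met, as the donor of the methyl group. Lysine methyltransferases differ in the lysine they modify: methylation of lysine 4 or lysine 36 of histone H3 (H3K4, H3K36) and of lysine 79 (H3K79) is found over active genes, whereas methylation of H3K9, H3K27 and lysine 20 of histone H4 (H4K20) is known mostly from silent or compacted chromatin. Lysine demethylases remove these marks, either with a flavin cofactor or with iron and alpha-ketoglutarate. Arginine methyltransferases modify histones and many other proteins, including splicing factors and ribosomal proteins.

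Counted reads per library were between 8277789 and 10397604. Levels are normalised read counts per 1000000 reads after TMM scaling (CPM), on which a floor of 3 reads lies at 0.277 to 0.377 depending on the library. Levels of different genes are compared only as CPM per kb of exon. CON replicates 1 and 4 had a chi-square of 1.33 per gene between their libraries and MET replicates 1 and 3 had 1.24, whereas the lowest value of the other 64 library pairs was 25.2. Both pairs carried the same 2 second indexes. These near-identical pairs were therefore counted as 1 sample each. Means ± SD are over 5 samples per diet. Tests are over the 12 libraries unless stated, and for called genes also over the 10 samples with the reads of a pair summed. Genes were called at a false discovery rate (FDR) of 0.10 or less in the quasi-likelihood test of edgeR. All CON libraries carried one first index and all MET libraries another, so index and diet cannot be told apart. Hepatocyte markers summed to between 107100 and 174100 CPM per sample. Skeletal muscle markers summed to at most 0.313 CPM and had 3 of 8 genes without a read.

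The 3 most abundant enzymes per kb of exon were PRMT1, PRMT5 and KDM2A. PRMT1, the main enzyme of asymmetric arginine dimethylation, had 29.2 ± 2.84 CPM per kb (SD, n = 10). PRMT5, the main enzyme of symmetric arginine dimethylation, had 17.4 ± 4.52 CPM per kb. KDM2A, a demethylase of H3K36, had 12.7 ± 1.10 CPM per kb. The samples of PRMT5, at 11.6 to 25.9 CPM per kb, overlapped with those of both neighbours in this order. Of the other members, 40 were between 1 and 10 CPM per kb, and KDM5A and SUV39H2 were below 1.

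Arginine methyltransferases had the highest median level by role, 6.99 CPM per kb over 8 genes, and H3K4 methyltransferases the lowest, 2.33 CPM per kb over 8 genes. The median of all members was 3.11 CPM per kb, beside 5.14 for all tested genes. KMT2E led the H3K4 group with 4.57 CPM per kb, and NSD1 led the H3K36 group with 7.45. EHMT2 (7.47) and EHMT1 (6.67), which form the H3K9 methylating complex G9a/GLP, had overlapping samples. EZH1, a catalytic subunit of Polycomb repressive complex PRC2, had 4.63 CPM per kb and its paralog EZH2 had 1.89, and the lowest EZH1 sample (3.84) was above the highest EZH2 sample (2.54). KMT5A had 6.43 CPM per kb and KMT5B 5.41, with overlapping samples, and KMT5C had 3.79. DOT1L, the only H3K79 methyltransferase, had 2.80.

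**Figure D1:**
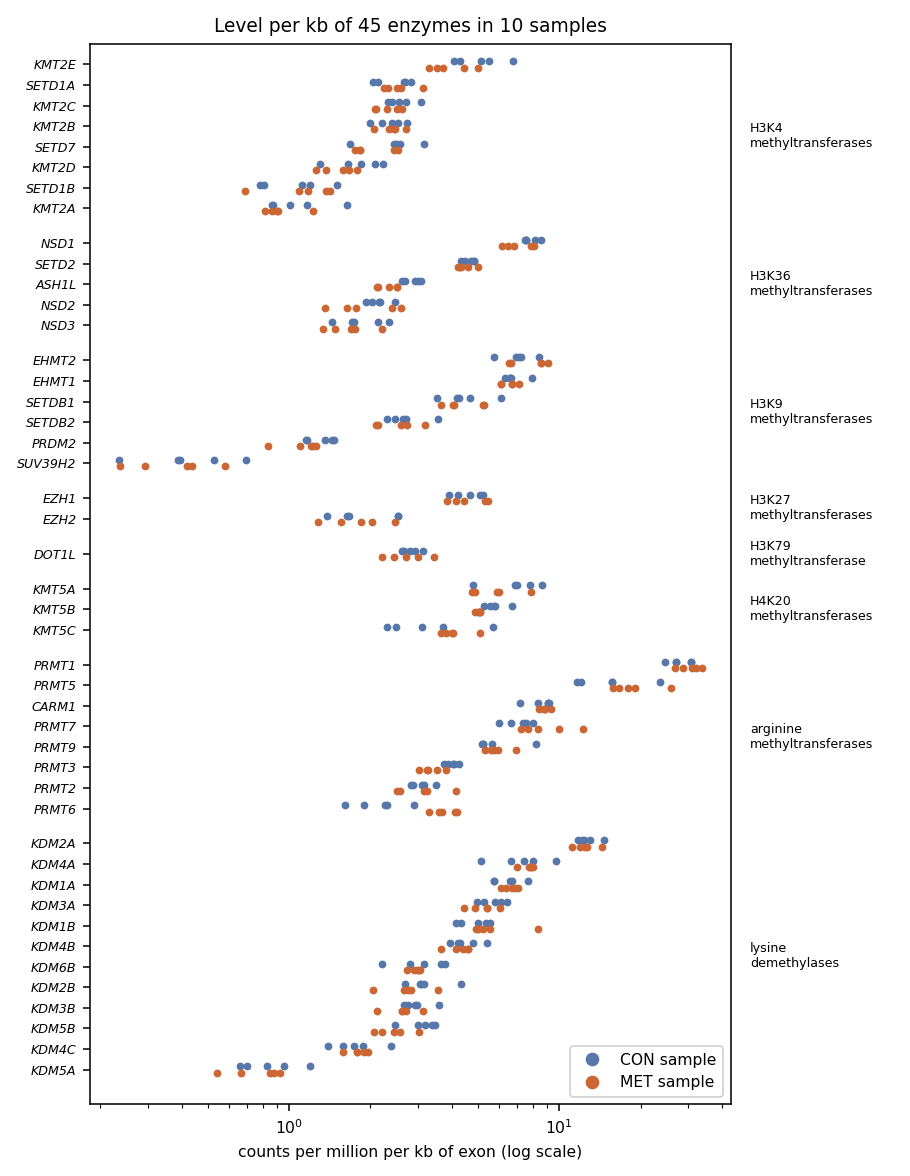
Level of each of the 45 genes in CPM per kb of exon (log axis), by role and ordered by mean, with 1 point per sample for 5 CON and 5 MET samples. PRMT1, PRMT5 and KDM2A stand at the right end and SUV39H2 at the left end, and in nearly every row the points of the diets intermingle.

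Only SUV39H2, an H3K9 methyltransferase, did not pass edgeR's filter on low counts. It had 3 to 14 reads per library. Its CON samples had 0.555 to 1.63 CPM and its MET samples 0.560 to 1.37 CPM. The diets overlapped fully. It was tested only in the alternative fit without the filter, at a log2 fold change of -0.031 (edgeR FDR 0.979).

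Of the 44 members tested, 2 passed the threshold over the 12 libraries, 1 higher (PRMT6) and 1 lower (ASH1L) in MET. That is 4.55% of the members, beside 4.41% of all 13212 tested genes, with 2.09% of all genes higher and 2.32% lower. The share called among these enzymes was thus close to the background. Over the 10 samples no gene of any kind passed the threshold in this test, and the lowest FDR of all genes was 0.156. At an unadjusted p of at most 0.05 the 10 samples gave 6 members (13.6%), beside 16.3% of all tested genes. DESeq2 on the 10 samples called 1 member (PRMT6), beside 4.83% of all genes.

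PRMT6, which places asymmetric dimethyl marks on an arginine of the histone H3 tail, was the most changed of the members. The gene lies on chromosome 3, bases 36428458 to 36429816 on the minus strand of UMD 3.1.1, and its span equals its exonic length of 1359 bases, the shortest of the members. Its 5 CON samples (replicate 1 with 4, then 2, 3, 5 and 6) had 2.57, 3.14, 3.09, 2.19 and 3.94 CPM. Its 5 MET samples (replicate 1 with 3, then 2, 4, 5 and 6) had 5.02, 4.88, 4.49, 5.60 and 5.67 CPM. Every MET sample was above every CON sample, with means of 2.99 ± 0.663 and 5.13 ± 0.498 CPM (SD, n = 5 each). The log2 fold change was 0.81 (SE 0.163, edgeR FDR 0.0452) over the 12 libraries. Over the 10 samples it was 0.78 (SE 0.189), with an edgeR FDR of 0.174 and a DESeq2 FDR of 0.0245. Per library the gene had 21 to 55 reads. The FDR was 0.104 without CON replicate 1 and 0.108 without CON replicate 4, the near-identical pair, and at most 0.10 when any of the other 10 libraries was left out.

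The other arginine methyltransferases did not pass the test. PRMT5 had 31.2, 32.3, 42.0, 41.9 and 63.1 CPM in the CON samples and 48.4, 51.1, 69.5, 44.8 and 42.4 CPM in the MET samples, in the same replicate order. The highest CON sample, replicate 6, was above 4 of the 5 MET samples, and the log2 fold change was 0.33 (SE 0.180, edgeR FDR 0.315). Without that library it was 0.51 (edgeR FDR 0.108), and without MET replicate 4 it was 0.22. WDR77, which forms the methylosome with PRMT5, had 7.58 ± 2.73 CPM in CON and 9.61 ± 1.08 CPM in MET, a log2 fold change of 0.41 (edgeR FDR 0.272). The other partners of PRMT5 did not pass either, with log2 fold changes of 0.13 for CLNS1A, -0.013 for COPRS and -0.42 for RIOK1 (edgeR FDR 0.209).

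PRMT7, which monomethylates arginine, had 20.8, 23.5, 18.8, 22.9 and 24.9 CPM in CON and 22.6, 23.9, 31.1, 26.1 and 38.1 CPM in MET. MET replicates 4 and 6 were the highest, and replicates 1 and 2 lay within the CON range. Its log2 fold change was 0.32 (SE 0.140, edgeR FDR 0.217), and without MET replicate 6 it was 0.20 (edgeR FDR 0.376). PRMT1 had 42.4 ± 4.09 CPM in CON and 45.9 ± 4.10 CPM in MET. CARM1, a coactivator of nuclear receptors, had 27.3 ± 2.70 and 28.2 ± 1.02 CPM. The differences of PRMT1 and CARM1 were smaller than the spread within a diet. PRMT3, whose known substrate is a ribosomal protein, was the 1 arginine methyltransferase with a lower estimate in MET, at 10.2 ± 0.508 CPM in CON and 8.58 ± 0.756 CPM in MET (log2 fold change -0.21, edgeR FDR 0.295), and its samples overlapped only through MET replicate 1 with 3 (9.68 CPM) and CON replicate 2 (9.55 CPM). Across the role, 7 of 8 estimates were above 0, with a median of 0.090.

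ASH1L, which dimethylates H3K36, was lower in MET. The gene lies on chromosome 3, bases 15145484 to 15353405 on the plus strand, with 12267 bases of exon. Its CON samples had 36.9, 32.1, 37.6, 33.0 and 36 CPM, and its MET samples had 30.8, 26.2, 25.9, 30.9 and 28.7 CPM. The lowest CON sample (32.1) was above the highest MET sample (30.9), with means of 35.1 ± 2.44 and 28.5 ± 2.41 CPM. The log2 fold change was -0.29 (SE 0.085, edgeR FDR 0.0915) over the 12 libraries and -0.30 (SE 0.099, edgeR FDR 0.197) over the 10 samples. The FDR exceeded 0.10, at 0.108 to 0.171, when any library other than CON replicate 2 was left out, and DESeq2 on the 10 samples gave 0.109. After the trend with gene length described further on was removed, the log2 fold change of ASH1L over the 12 libraries was -0.11 (edgeR FDR 0.426).

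The other H3K36 methyltransferases had estimates below 0 and did not pass. NSD1, the most abundant of them, had 74.4 ± 4.50 CPM in CON and 67.1 ± 8.01 CPM in MET. SETD2, which carries out trimethylation of H3K36, had 46.4 ± 2.25 and 44.9 ± 3.21 CPM and the smallest spread within a diet of all members, an SD of 0.086 on the log2 scale. The median log2 fold change of the role was -0.14 over 5 genes, and with the length trend removed it was 0.024.

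Among the 8 H3K4 methyltransferases none passed the test, and 6 had estimates below 0. KMT2E, a family member with a SET domain but little activity known on histones, had the most negative estimate of all members. It had 47.7, 30.2, 38.9, 36.3 and 28.7 CPM in CON and 31.2, 26.1, 24.9, 35.3 and 23.3 CPM in MET. The diets overlapped between 28.7 and 35.3 CPM, and the log2 fold change was -0.42 (SE 0.150, edgeR FDR 0.148). Over the 10 samples it was -0.37 (edgeR FDR 0.289).

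KMT2A, the founding member of the family and a regulator of homeobox genes, had 26.8, 14.1, 19.0, 16.5 and 14.2 CPM in CON and 14.7, 14.8, 13.2, 20.03 and 14.1 CPM in MET. The near-identical pair of CON replicates 1 and 4 was the highest, and the other CON samples lay within the range of the MET samples. The log2 fold change was -0.36 (SE 0.179, edgeR FDR 0.280) with the pair counted as 2 libraries and -0.24 (SE 0.189, edgeR FDR 0.552) with the pair counted as 1 sample, and without CON replicate 4 it was -0.22. KMT2C and KMT2D, which act at enhancers, had estimates of -0.20 and -0.24. SETD1A and SETD1B, the enzymes of most H3K4 trimethylation, had estimates of -0.0098 and 0.068. Of the 11 shared subunits and partners of these complexes, 1 passed over the 12 libraries, beside 4.41% of all tested genes. It was CXXC1, the subunit that binds unmethylated CpG, at 32.9 ± 1.48 CPM in CON and 41.9 ± 3.71 CPM in MET (log2 fold change 0.33, edgeR FDR 0.0707), and over the 10 samples its FDR was 0.175. The core subunits WDR5 (0.22), ASH2L (-0.17) and RBBP5 (-0.20) did not pass, as log2 fold changes over the 12 libraries.

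None of the 3 H4K20 methyltransferases passed the test. KMT5B, which carries H4K20 from the monomethyl state to higher states, had 50.6, 41.7, 43.6, 39.6 and 43.4 CPM in CON and 36.9, 38.0, 38.3, 37.7 and 38.5 CPM in MET. All MET samples were below all CON samples, with a gap between 38.5 and 39.6 CPM. The log2 fold change was -0.25 (SE 0.084, edgeR FDR 0.127) over the 12 libraries and -0.21 (SE 0.095, edgeR FDR 0.300) over the 10 samples. The DESeq2 FDR was 0.0671 with 12 libraries, and 0.242 with the pairs summed. With the length trend removed the log2 fold change was -0.12 (edgeR FDR 0.473) and the diets overlapped. The gene lies on chromosome 29, bases 46311336 to 46365008, with 7549 bases of exon.

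KMT5A, which places the monomethyl mark on H4K20 and is known to vary with the cell cycle, had 13.1, 12.8, 16.1, 8.97 and 14.5 CPM in CON and 9.15, 11.2, 11.1, 14.7 and 8.87 CPM in MET. The ranges of the diets were nearly the same, and the log2 fold change was -0.30 (SE 0.160, edgeR FDR 0.315). Its exons sum to 1873 bases, so it was one of the shortest members. KMT5C, the paralog of KMT5B, had 7.23 ± 2.86 CPM in CON and 8.60 ± 1.18 CPM in MET and the widest SE of the members (0.226). Proliferation genes, 22 of 23 of which could be tested, had a median log2 fold change of -0.51. In edgeR over the 12 libraries 3 of the 22 were called (CDK1, CCNB1 and CCNE2, all lower in MET), beside 4.41% of all tested genes. None of them was called over the 10 samples. The list summed to 114 to 258 CPM in CON and 90.4 to 142 CPM in MET. CON replicates 2 and 3 had 212 and 258 CPM, and the other CON samples, at 114 to 138 CPM, lay within the MET range. The part of proliferation in the values of KMT5A and KMT5B was not tested.

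None of the tested H3K9 and H3K27 methyltransferases passed the test. EHMT2 had 28.2 ± 3.73 CPM in CON and 31.3 ± 4.70 CPM in MET (log2 fold change 0.18, SE 0.113, edgeR FDR 0.395). EHMT1 had 30.3 ± 2.79 and 29.1 ± 1.91 CPM. SETDB1, SETDB2 and PRDM2 had estimates of -0.065, -0.079 and -0.23. The 7 partners of the H3K9 enzymes held no call.

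EZH2, the PRC2 enzyme of dividing cells, had 5.28 ± 1.47 CPM in CON and 4.96 ± 1.24 CPM in MET, with a log2 fold change of -0.049 (SE 0.203). EZH1 had 22.8 ± 2.77 and 22.9 ± 3.51 CPM. Neither difference exceeded the spread within a diet. Of the 9 PRC2 partners 1 passed over the 12 libraries, beside 4.41% of all tested genes. It was AEBP2, an accessory subunit, at 12.4 ± 1.45 CPM in CON and 9.06 ± 1.02 CPM in MET (log2 fold change -0.43, edgeR FDR 0.0826). AEBP2 did not pass over the 10 samples (-0.44, edgeR FDR 0.180) or over the 12 libraries with the length trend removed (-0.36, edgeR FDR 0.144). The core subunits EED (0.0045) and SUZ12 (-0.29) did not pass. DOT1L had 25.6 ± 1.89 CPM in CON and 24.9 ± 4.32 CPM in MET, and none of its 3 tested partners was called.

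None of the 12 lysine demethylases passed the test, and 9 had estimates below 0, with a median of -0.098. KDM5B, a demethylase of H3K4, had the most negative one, at 20.3, 15.7, 22.1, 19.2 and 21.6 CPM in CON and 19.3, 13.2, 16.5, 15.7 and 14.1 CPM in MET. The diets overlapped between 15.7 and 19.3 CPM, and the log2 fold change was -0.28 (SE 0.122, edgeR FDR 0.212). KDM2A had 85.5 ± 7.47 CPM in CON and 84.0 ± 8.09 CPM in MET.

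The flavin-dependent enzymes had estimates above 0. KDM1A, the demethylase of the CoREST complex, had 19.9 ± 2.42 and 20.3 ± 1.15 CPM, and its paralog KDM1B had 22.2 ± 2.79 and 26.3 ± 6.46 CPM. MET replicate 5 had 37.7 CPM of KDM1B beside 22.4 to 25.2 CPM in the other MET samples, and without it the log2 fold change was 0.041 in place of 0.18. Of 20 related enzymes that were tested, 2 passed over the 12 libraries, beside 4.41% of all tested genes. They were KDM7A (log2 fold change -0.47, edgeR FDR 0.0855) and JMJD1C (-0.37, edgeR FDR 0.0915), both of the family that uses alpha-ketoglutarate. Neither passed over the 10 samples (edgeR FDR 0.212 and 0.192). With the length trend removed over the 12 libraries neither passed, at -0.31 for KDM7A (edgeR FDR 0.195) and -0.21 for JMJD1C (edgeR FDR 0.246).

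**Figure D2:**
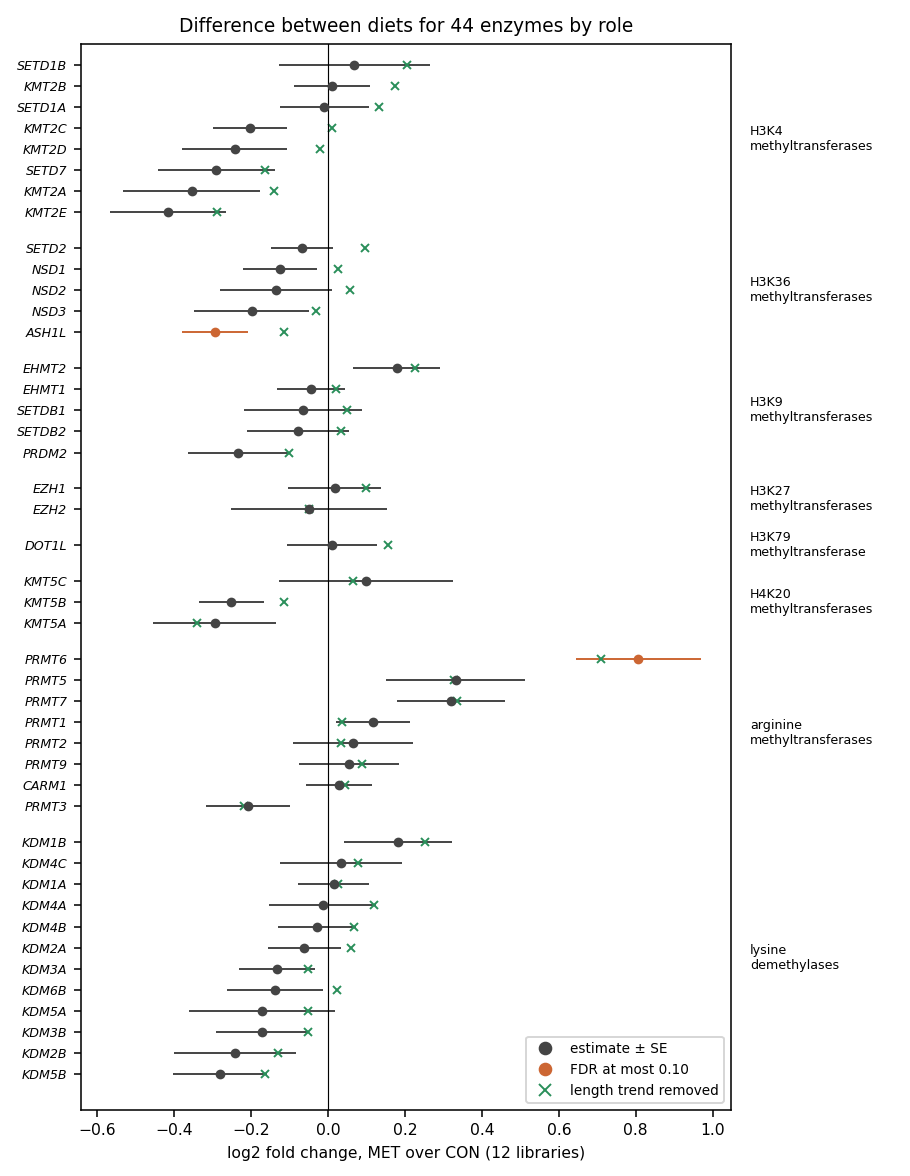
Log2 fold change of MET over CON with its SE (points and bars) for the 44 tested genes over the 12 libraries, by role, with crosses for the value after removal of the length trend. PRMT6 at 0.81 and ASH1L at -0.29 are the coloured points with an FDR of at most 0.10, and the crosses of most long genes lie to the right of their points.

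**Figure D3:**
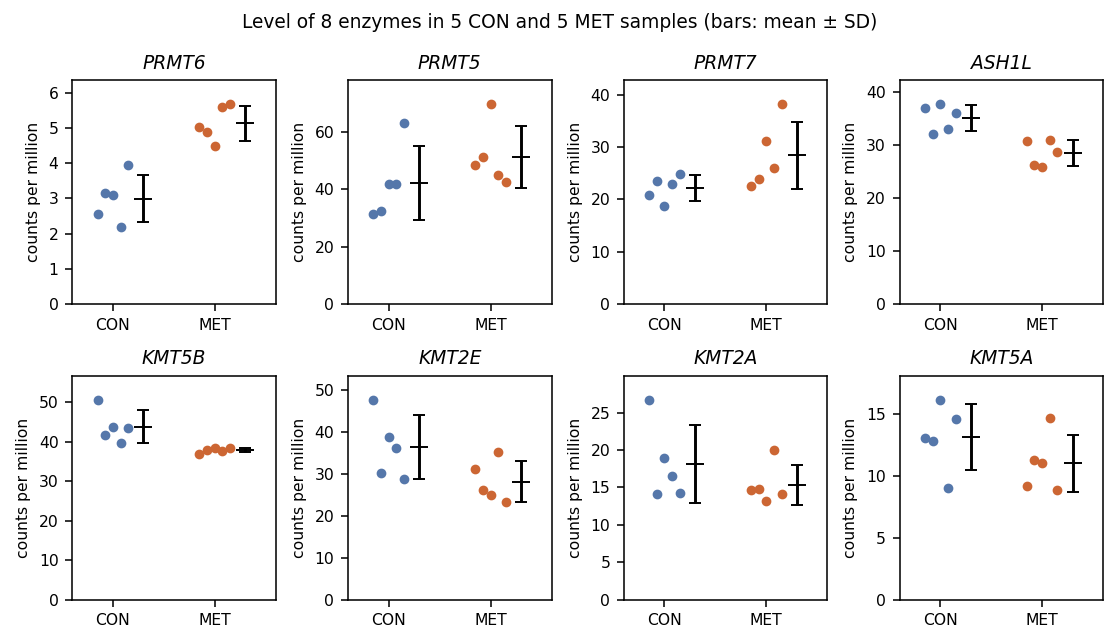
CPM of 8 genes in the 5 CON and 5 MET samples, with mean ± SD beside the points and axes starting at 0. The diets do not overlap in PRMT6, ASH1L and KMT5B and overlap in the other 5 genes.

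In all, 3 members had 5 MET and 5 CON samples that did not overlap (PRMT6 higher, ASH1L and KMT5B lower), 6.82% of the members beside 3.71% of all tested genes. All but 2 members (PRMT6 and KMT2E) had log2 fold changes within 0.40 of 0, with a median SE of 0.130. Within a diet the members had a median SD of 0.208 on the log2 scale beside 0.278 for all tested genes. SETD1B had the widest spread, 0.384. SETD1B and KDM2B, which lie 151 kb apart on chromosome 17, had log2 fold changes of 0.068 and -0.24.

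Long members tended to lower and short members to higher estimates in MET. With 6388 bases of exon at the median, beside 2807 for all tested genes, 29 of the 44 members belonged to the longest quartile of tested genes (4508 to 30785 bases). Estimates below 0 were found for 28 of the 44 members (63.6%), beside 50.4% of all tested genes, and the median log2 fold change was -0.064 beside -0.0031. Over the 10 samples these medians were -0.068 and -0.0028. Among all tested genes, however, the median fell from 0.18 in the shortest decile to -0.15 in the longest decile. Within the longest quartile the 29 members had a median of -0.14, beside -0.13 for all 3303 genes of that quartile, and 16 of the 29 were below the median of the quartile. Estimates below 0 were found for 24 of the 29 (82.8%), beside 69.2% of the genes of the quartile.

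The arginine, H3K4 and H3K36 methyltransferases differed in length as well as in direction. Exonic length was 1359 to 3647 bases for the arginine methyltransferases, 7052 to 19374 bases for the H3K4 and 9490 to 14162 bases for the H3K36 methyltransferases. The corresponding median log2 fold changes over the 12 libraries were 0.090, -0.22 and -0.14. After a smooth trend of each library's counts with exonic length was removed, they were 0.066, -0.0063 and 0.024. KMT5A, with 1873 bases, went against this order, at -0.30 as counted and -0.34 after this step. The median of all 44 members became 0.033, so its sign depended on this step, and 12 members, among them NSD1, NSD2, SETD2, KMT2C and KDM2A, went from an estimate below 0 to an estimate above 0. None went the other way.

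PRMT6 kept a log2 fold change of 0.71 (edgeR FDR 0.0820) over the 12 libraries after this step and was the 1 member called, beside 1.94% of all tested genes. It was also the 1 member whose samples then did not overlap, beside 3.09% of all tested genes. Over the 10 samples its value was 0.69 (edgeR FDR 0.226), and 3 members (PRMT6, PRMT7 and PRMT3) had an unadjusted p of at most 0.05, which is 6.82% beside 14.1% of all tested genes. PRMT3 was lower (-0.25) and the other two were higher in MET. Over the 12 libraries the members at that p were PRMT6, PRMT7 and KMT2E, beside 17.6% of all tested genes.

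**Figure D4:**
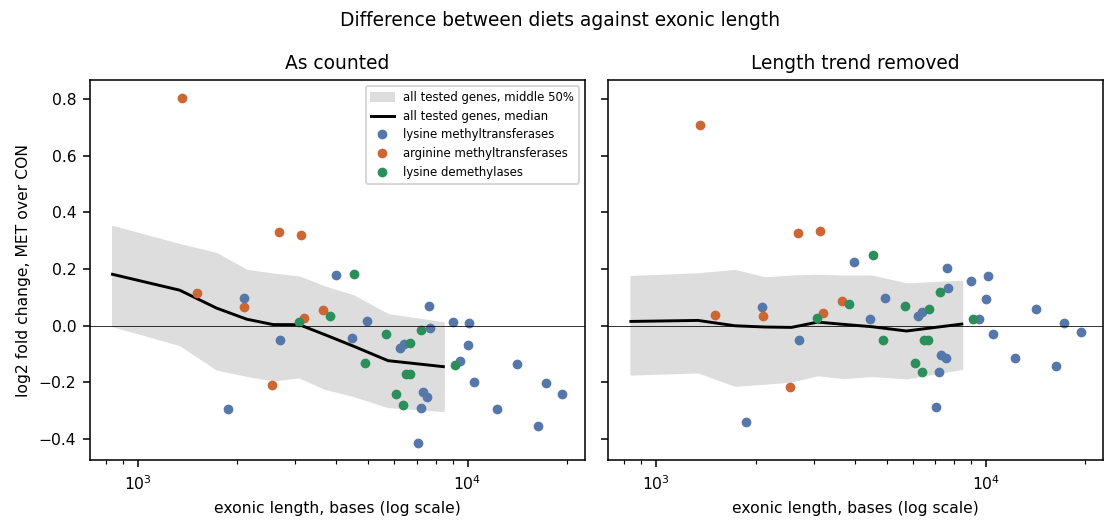
Log2 fold change of MET over CON against exonic length (log axis) for the 44 genes, coloured by kind of enzyme, with the median and middle 50% of all tested genes in deciles of length, as counted (left) and after removal of the length trend (right). On the left the median of all genes falls from 0.18 to -0.15 and most enzymes lie within the band around it, and on the right PRMT6 stays apart at 0.71.

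The trend with length differed from sample to sample. The median log2 deviation of the longest quartile of genes minus that of the shortest quartile was -0.070 to 0.28 in the CON samples and -0.33 to 0.033 in the MET samples, and the diets overlapped. MET replicate 6 had the lowest value (-0.33), and there the 29 long members had a median deviation of -0.15 beside -0.12 for the other 3274 long genes. CON replicate 3 had the highest value (0.28), with 0.11 beside 0.13. In the pair of CON replicates 1 and 4 the long members stood at 0.21, beside 0.11 for the other long genes. The part of the length trend in the difference of any single enzyme was not tested beyond its removal.

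In bulk liver, fewer cells of a type and less RNA per cell cannot be told apart. Most markers of cell types did not pass the test, which called 4.41% of all tested genes over the 12 libraries. The 8 macrophage markers all had estimates above 0 (median 0.23, with AIF1 called) and summed to 832 to 1131 CPM in CON and 975 to 1344 CPM in MET. The 7 stellate cell and fibroblast markers all had estimates below 0 (median -0.29, with LUM called) and summed to 619 to 908 and 456 to 752 CPM. The 7 hepatocyte markers had a median of -0.28 with APOB called, and summed to 129000 to 174100 CPM in CON and 107100 to 133000 CPM in MET. The 4 tested lymphocyte markers had a median of 0.43 at a sum of 14.4 to 27.8 CPM over all samples, the 7 endothelial markers one of -0.075, and the 4 tested cholangiocyte markers one of -0.23 with CFTR called. AIF1, LUM, APOB and CFTR passed in edgeR over the 12 libraries and not over the 10 samples. With the length trend removed over the 12 libraries none of them passed, and AIF1 went from a log2 fold change of 0.46 to 0.27, APOB from -0.38 to -0.19, CFTR from -0.56 to -0.44 and LUM from -0.70 to -0.74. Of 8 erythroid markers 2 were tested, and their sum ranged from 7.58 to 961 CPM in CON and 57.0 to 460 CPM in MET. The part of these cell types in the values of the enzymes was not tested.

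None of 7 genes for the supply and removal of the methyl donor passed the test. Their mRNA do not measure the level of the donor itself. MAT1A, the liver enzyme that makes S-adenosylmethionine, had 542 ± 205 CPM in CON and 466 ± 146 CPM in MET (log2 fold change -0.20, edgeR FDR 0.703). AHCY, which removes the S-adenosylhomocysteine that methyltransferases release, had 1995 ± 195 and 1980 ± 474 CPM. GNMT, which disposes of excess S-adenosylmethionine, was the 1 gene of the list with an estimate above 0, at 30.7 ± 6.06 and 50.3 ± 50.6 CPM, and the SD in MET was as large as the mean. Over the partner, related enzyme and methyl donor lists together, 4 of 67 tested genes passed over the 12 libraries, beside 4.41% of all tested genes. Over the 10 samples edgeR called none of them and DESeq2 called 3.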

How the data were processed

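Liver RNA libraries (TruSeq stranded mRNA) of 6 CON and 6 MET calves were sequenced on 1 lane. The authors aligned reads with STAR 2.5.3a to UMD 3.1.1, counted them with featureCounts (Subread 1.5.2) per exon and RefSeq gene by strand, and deposited raw counts per gene. Counts were grouped by sample label. Genes passing edgeR's filter (minimum count 10, total 15) were tested with edgeR 4.0.16 in R 4.3.3 (TMM, quasi-likelihood, diet only), with Benjamini-Hochberg adjustment over 13212 genes. SE is the absolute log2 fold change divided by the square root of the F statistic of the quasi-likelihood test. DESeq2 1.42.0, other scaling, no filter, summed library pairs, a loess correction for exonic length (span 0.5), a replicate block and omission of each library were alternatives. The test was checked on simulated counts. Floors cover counting error only. Each library is given as a separate calf, but with the near-identical pairs entered as separate libraries, p over the 12 libraries is too small.

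The members and gene lists were chosen with earlier results of these data known. Genes given with values were each member called or without overlap, the 3 largest changes in each direction, the highest per kb in each role, and called list genes, and other members were named after their values were seen. Same-numbered CON and MET replicates had deviations correlated at -0.19 to 0.15, so numbers did not pair the samples. Positions come from the count tables, with chromosome numbers from a RefSeq table of ARS-UCD2.0 (at least 94.3% of a sequence's genes in common). Promoter motifs were not analysed here.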

Additional observations from a re-analysis of the deposited data

Results flagged for a closer look

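Among 88 groups of 5 samples (44 genes in each diet), 6 held 1 sample far from the other 4 by Dixon's ratio, all of them at the upper end, and chance flags about 1 in 20 groups. MET replicate 5 stood apart in 3 genes. Its KMT2A level was 20.03 CPM beside 13.2 to 14.8 in the other MET samples. Its KMT5C level was 10.6 CPM beside 7.62 to 8.45, and its KDM1B level was 37.7 CPM beside 22.4 to 25.2. CON replicate 6 stood apart in EHMT1, at 35.2 CPM beside 28.1 to 29.5 in the other CON samples, and in PRMT9, at 29.9 CPM beside 18.9 to 20.6. The pair of CON replicates 1 and 4 stood apart in KDM2B, at 26.3 CPM beside 16.3 to 19.1. None of these 6 genes passed the test between diets.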

How the results depend on the processing

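Over the 12 libraries 583 genes, 2 members and 4 genes of the partner, related enzyme and methyl donor lists passed an FDR of 0.10. With library pairs summed, edgeR gave counts of 0, 0 and 0, and again 0, 0 and 0 with the length correction as well. With the length correction over 12 libraries they were 256, 1 (PRMT6) and 1 (CXXC1), and without the low-count filter 238, 1 and 0. DESeq2 gave 1314, 3 and 5 over the 12 libraries and 639, 1 and 3 with pairs summed. The replicate block, whose numbers did not pair the samples, gave 6 genes, 0 members and 0 list genes. Leaving out each library gave 26 to 565 genes, 0 to 2 members and 0 to 3 list genes. The 26 genes came without CON replicate 1, and 35 without CON replicate 4. The count was 206 to 376 without CON replicate 3, CON replicate 6 or any MET replicate, and within 1.5 times of 583 without CON replicates 2 or 5. No member was called without CON replicate 1 or 4. The members without overlap went from 3 to 1 with the length correction, beside 3.71% and 3.09% of all tested genes. The median of the members changed from -0.064 to 0.033 with the length correction and to 0.035 with pairs summed as well, and it was -0.032 without MET replicate 2.

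Named members with a reversed estimate were all within 0.13 of 0 in the reported fit. With the length correction NSD1 had 0.024 and KDM2A 0.059, and KDM2A had 0.091 with pairs summed as well. EZH1 ranged from -0.032 to 0.075 over single omitted libraries, with -0.032 without CON replicate 2, -0.014 without CON replicate 6, and -0.018, -0.032 and -0.015 without MET replicates 1, 3 and 5. DOT1L ranged from -0.062 to 0.073 over them, with -0.032 with DESeq2 and -0.036 with edgeR on summed pairs, -0.0045 with the block, -0.012 and -0.0075 without CON replicates 3 and 5, and -0.062, -0.030 and -0.0027 without MET replicates 1, 3 and 4. Of 280 estimates of the 14 named members under alternatives, 241 kept direction and call, 16 reversed, 22 lost the call and 1 gained it. Promoter motifs were not run. At 21 to 55 reads per library, PRMT6 had fewer reads than most members, and SUV39H2, at 3 to 14, had the fewest.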
